A study of Mus musculus with 2 samples.

Results

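The genes of the major histocompatibility complex (MHC) and of antigen presentation were compared between circumvallate papillae (CvP) and the epithelium without papillae (Epi) of the mouse tongue. The members were every row of the deposited table whose gene symbol begins with H2-, the mouse MHC prefix, and 18 further genes named for their part in antigen presentation, from *B2m* and *Cd74* to *Mr1*. They came to 52 of 18498 rows, of which 34 carried an H2- symbol. Both tissues came from C57BL/6J mice, listed at 12 to 30 weeks, and the RNA of at least 20 mice was pooled for each tissue. The paper states wild-type males for its RT-PCR and normal chow for its housing. Its description of the sequencing repeats neither sex, genotype nor diet. One poly(A)+ library was sequenced per tissue, so no spread between animals could be measured and no test was possible. Every value below is the level in 1 pooled library, as reads scaled by the length of the exon model and by the mapped reads of the library (RPKM).

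MHC class I molecules display peptides from the cytosol to CD8 T cells and are made by nearly all nucleated cells, each from a polymorphic heavy chain and the invariant light chain β2-microglobulin. The proteasome cuts the peptides, the TAP transporter carries them into the endoplasmic reticulum, and tapasin helps to load them. MHC class II molecules display peptides from endosomes to CD4 T cells and are made mainly by dendritic cells, macrophages and B cells. Interferon γ raises both pathways, and stratified epithelia such as that of the tongue hold Langerhans cells, a class II-bearing population of the epidermis and oral mucosa.

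The step between the lowest RPKM values gave about 28375281 mapped reads for CvP and 27908511 for Epi. The 8 taste cell markers summed to 383 RPKM in CvP and 5.82 in Epi, in the direction of the labels, and 6 skeletal muscle markers summed to 3.13 and 46.0. Over the 10363 rows with an RPKM of at least 1 in both libraries the median CvP/Epi ratio was 1.31, or 0.39 on the log2 scale, and 75.5% of these rows were higher in CvP. A member's ratio is therefore read against 1.31 as well as against 1. Reads per gene were estimated from RPKM, transcript length and depth, and each ratio has a 95% exact interval from them. These intervals cover counting error only, since neither the animals nor the libraries were replicated and reads are not independent molecules.

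Most members were higher in CvP. Of the 52 members, 45 had the higher RPKM in CvP and 7 in Epi. A level of 1 RPKM or more was reached by 26 members in both libraries, by 8 in CvP only and by 1, *Cd207*, in Epi only, and the other 17 stayed below 1 in both. Of the 35 that reached 1 in either library, 21 were at least 2-fold higher in CvP, where 28.3% of all 12549 such rows were, and 0 were at least 2-fold lower, against 3.76%. By value alone, 32 of the 35 were higher in CvP, against 78.1%. Members that reached 1 through CvP alone had to be higher there, and *Cd207*, through Epi alone, had to be lower. The 26 at 1 or more in both are therefore the fairer count. Of these, 13 were at least 2-fold higher, against 17.3% of all such rows, 0 were at least 2-fold lower, against 3%, and 24 were higher by value, against 75.5%. Their median ratio was 2.003, and the interval lay wholly above 1.31 for 19, wholly below it for 2 and included it for 5. Of the 15 members with a mean RPKM of at least 10, 7 were at least 2-fold higher, against 10.7% of rows at that level, 0 at least 2-fold lower, against 4.45%, and 13 higher by value, against 64.3%. The criteria stated in the study, a CvP RPKM above 10 and a ratio above 3, were met by 2 members, *B2m* and *Cd74*. They were met by 435 of all 18498 rows, or 2.35%. This is fewer than the number of genes the paper reports for the same criteria, so its list may hold other members. In bulk tissue, more cells of a type and more RNA per cell cannot be told apart.

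**Figure D1:**
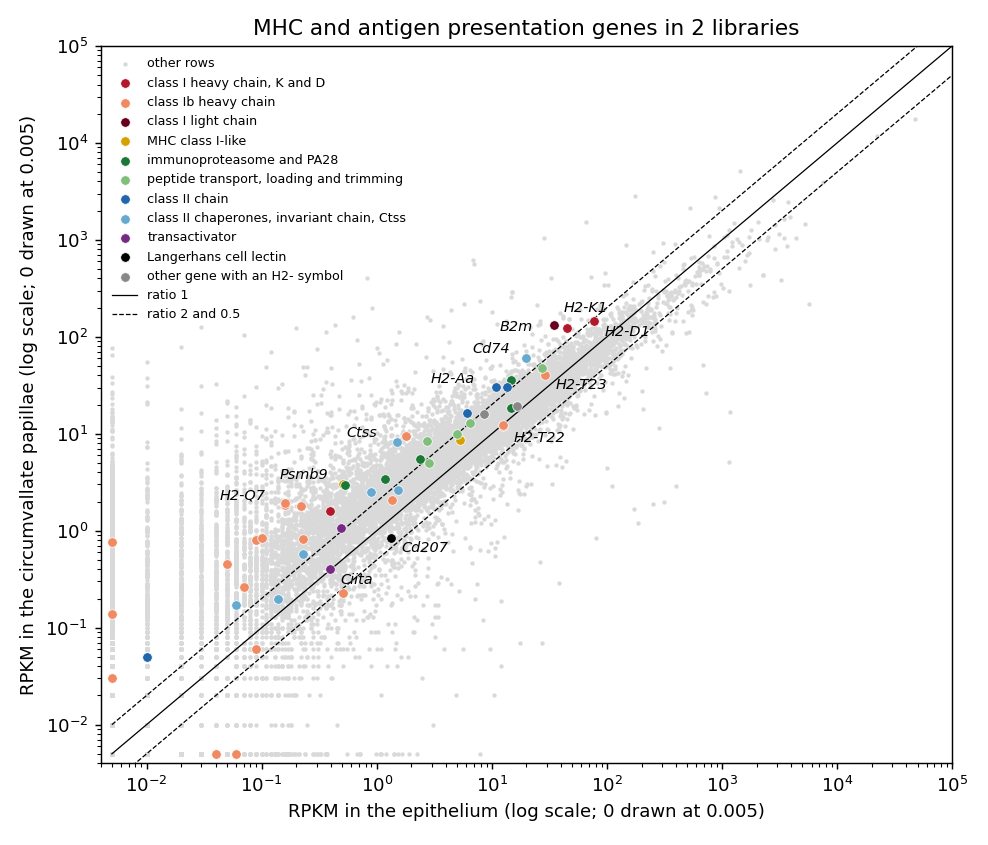
RPKM in CvP (vertical, log scale) against RPKM in Epi (horizontal, log scale), 1 point per row of the table, with members coloured by role and all other rows in grey. Lines mark ratios of 1, 2 and 0.5, and most members lie above the line of ratio 1, with *H2-T22* on it and *Cd207* below it.

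The classical class I heavy chains were among the most abundant members. *H2-D1* (chr17:35400039-35404442 of NCBI37, plus strand) had 144 RPKM in CvP and 77.0 in Epi, a ratio of 1.87 (95% interval 1.80 to 1.94). *H2-K1* (chr17:34132957-34137278, minus strand) had 122 and 45.5, a ratio of 2.68 (2.55 to 2.82). By RPKM the K chain stood at 84.6% of the D chain in CvP and at 59.0% in Epi. *B2m* (chr2:121973423-121978818), the light chain shared by class I molecules, showed a wider gap than either, with 131 RPKM in CvP and 34.9 in Epi and a ratio of 3.75 (3.48 to 4.06). By RPKM it ranked 320 in CvP and 1384 in Epi. Set against the sum of *H2-K1* and *H2-D1*, *B2m* was at 49.2% in CvP and 28.5% in Epi. The size of such quotients between genes depends on length, since the table lists 3.38 kb for *H2-K1* and 2.02 kb for *B2m*, where the longest coding transcripts have 1.605 and 0.86 kb. Restated per transcript length, *H2-K1* would be at 136% of *H2-D1* in CvP and 94.9% in Epi, and *B2m* at 69.1% and 41.7% of their sum, so the order of the K and D chains in CvP turns and the direction between tissues does not. CvP/Epi ratios of 1 gene do not depend on its length. *H2-K2*, which the GENCODE annotation lists as a pseudogene, had 1.59 and 0.39. *H2-K1* and *H2-D1* keep 78.2% and 77.4% of their 75-base exon windows distinct, with 2 mismatches allowed, from the rest of the MHC region, and how multiply matching reads were assigned is not given.

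Because both chains were higher in CvP, the 250 bases before their starts are shown, from RefSeq (GRCm38.p6). The *H2-K1* window is chr17:34000348-34000597 on the minus strand, before the first of 2 listed starts, and the *H2-D1* window is chr17:35262844-35263093 on the plus strand. Capitals mark a κB site of enhancer A (GGGGATTCCCC, searched with any base at the sixth place), an interferon response core (GTTTCACTTC, searched with any base at the sixth and the seventh place) and, in *H2-D1*, a Y box (CTGATTGG, here on the opposite strand).
H2-K1: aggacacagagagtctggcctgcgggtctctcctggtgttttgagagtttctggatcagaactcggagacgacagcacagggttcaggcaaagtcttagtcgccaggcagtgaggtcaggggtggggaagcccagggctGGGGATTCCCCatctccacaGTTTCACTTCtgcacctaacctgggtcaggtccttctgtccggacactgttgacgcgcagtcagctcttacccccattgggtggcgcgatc
H2-D1: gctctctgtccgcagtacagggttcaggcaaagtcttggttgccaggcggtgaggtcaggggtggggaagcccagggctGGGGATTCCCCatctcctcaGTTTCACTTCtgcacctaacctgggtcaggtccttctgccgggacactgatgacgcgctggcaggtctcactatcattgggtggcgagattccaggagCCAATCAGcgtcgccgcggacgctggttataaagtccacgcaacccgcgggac
The κB site and the interferon core lay in the same order and spacing in both, at 111 to 101 and 91 to 82 bases before the *H2-K1* start and at 171 to 161 and 151 to 142 before that of *H2-D1*. Searched on both strands, the κB letters occurred in 0.0457% of 32851 promoter windows of this length and in 3 of the 36 members with a listed window, *H2-K1*, *H2-D1* and *H2-Q6*. The interferon core occurred in 1.45% of all windows and in 7 of these members, *H2-K1*, *H2-D1*, *H2-Q6*, *H2-Q7*, *H2-Q10*, *H2-M2* and *H2-M3*. All windows are counted per start and members per gene, so a member with several starts had more windows in which to match. A match of letters is a description of the sequence and not a bound site.

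The class Ib heavy chains are less polymorphic relatives of the K and D chains. All 8 rows of the Q region were higher in CvP, each with its interval above 1, and without *H2-Q9*, which repeats a place, they summed to 15.5 RPKM in CvP and 2.39 in Epi. The most abundant, *H2-Gs10*, had 9.51 and 1.80, a ratio of 5.28 (4.31 to 6.55). Its position is that of *H2-Q4* in the GENCODE annotation. *H2-Q6* had 1.79 and 0.22, with a ratio of 8.14 (3.51 to 23.4). The rows of *H2-Q7* and *H2-Q9* cover the same place and are not separate measurements, with 1.86 and 1.92 RPKM in CvP and 0.16 in Epi for each. *H2-Q7* belongs to the Qa-2 antigens, and its ratio was 11.6 (5.39 to 34.6). *H2-Q2* had 24 estimated reads in CvP and 0 in Epi, which is 7.87-fold higher when Epi is set to a floor of 3 reads, with a lower 95% exact limit of 5.92. The split of reads within the Q region is uncertain, since 75% of *H2-Q7* windows and 59.9% of *H2-Q6* windows recur elsewhere in the MHC region within 2 mismatches, and a sum over the Q region does not remove this. The other Q rows stayed below 1, *H2-Q8* at 0.81 and 0.09, *H2-Q10* at 0.45 and 0.05 and *H2-Q1* at 0.26 and 0.07.

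In the T region, 3 of 6 rows were higher in CvP with an interval above 1. *H2-T23*, which encodes Qa-1, the ligand of the NKG2A receptor of natural killer cells, was abundant in both libraries, with 40.6 RPKM in CvP and 28.7 in Epi and a ratio of 1.41 (1.31 to 1.52). Its interval includes the median ratio of all rows. Relative to the sum of *H2-K1* and *H2-D1* it was lower in CvP, at 15.2% against 23.4%. *H2-T22*, a ligand of some γδ T cell receptors, had 12.0 and 12.5 RPKM, a ratio of 0.956 (0.853 to 1.07), and *H2-T9* had 12.4 and 12.6, a ratio of 0.989 (0.843 to 1.16). These 2 rows also share a place, their intervals lie below the median ratio, and their direction turns to above 1 when both libraries are rescaled to the same RPKM sum. *H2-T22* was also the least distinct of the MHC region members searched, with 85.3% of its windows recurring, and its exons overlap antisense annotations over 1003 and 1009 bases. The kit named in the labels is not stated to mark strand, so reads of such partners cannot be told apart. *H2-T24* had 2.06 and 1.37 RPKM, *H2-T10* 0.82 and 0.23 with a ratio of 3.57 (1.85 to 7.91), and *H2-Bl* 0 and 0.06.

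The M region was close to the limit of detection, and its 6 rows summed to 1.30 RPKM in CvP and 0.74 in Epi. *H2-M3*, which presents N-formylated bacterial peptides, had 0.84 and 0.10, with 34 and 4 estimated reads. *H2-M10.5*, of a family known from vomeronasal neurons, had 0.23 and 0.51, with 9 and 20 reads, and its interval included 1. *H2-M2* had 6 reads and 0, and *H2-M5*, *H2-M10.2* and *H2-M10.6* had at most 3 reads in either library. Of the class I-like genes outside the MHC, *Cd1d1*, which presents lipids to natural killer T cells, had 3.06 and 0.51 RPKM, a ratio of 6.00 (3.96 to 9.20). *Mr1*, which presents vitamin B metabolites to mucosal-associated invariant T cells, had 8.54 and 5.33, a ratio of 1.602 (1.41 to 1.83).

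**Figure D2:**
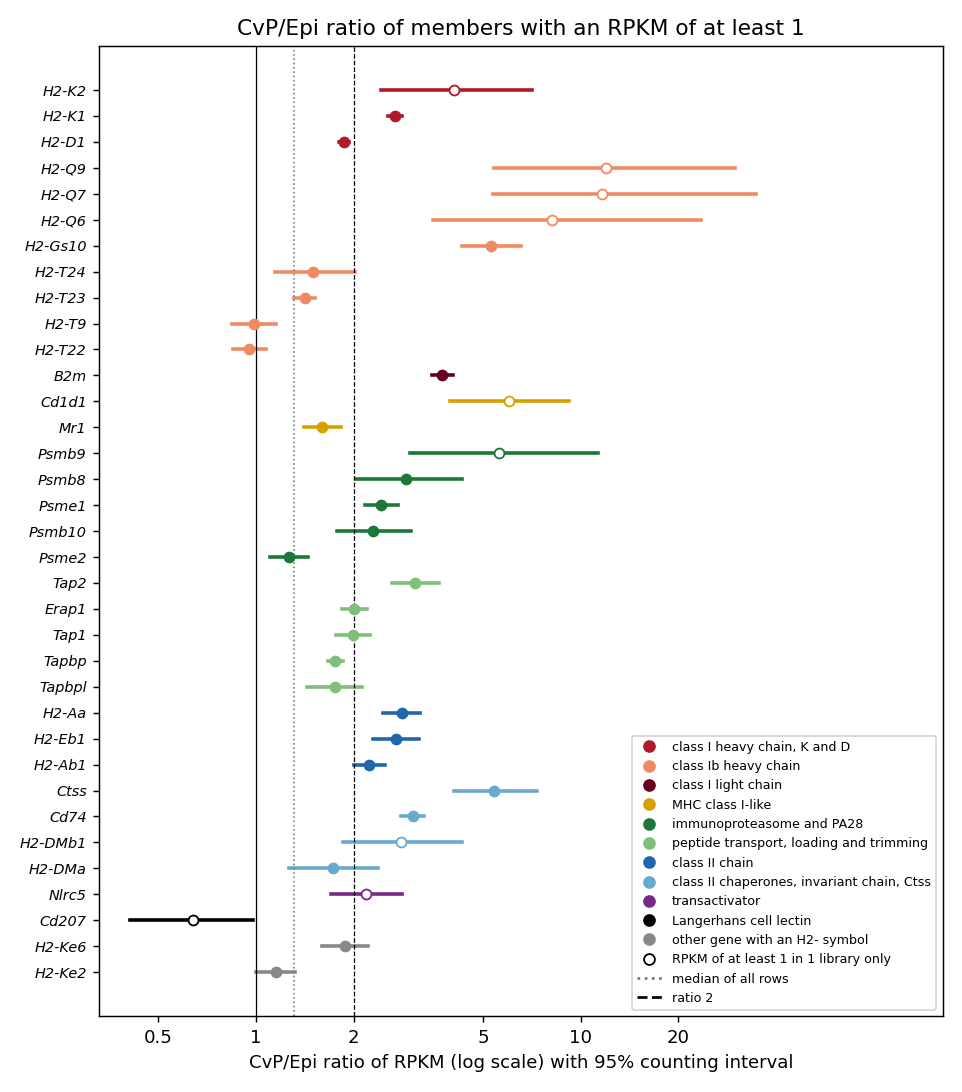
CvP/Epi ratio of RPKM (log scale) for the 35 members that reached 1 RPKM in either library, grouped by role, with 95% counting intervals and open points where only 1 library reached 1. The dotted line is the median ratio of all rows (1.31), and the Q region genes, *Cd1d1*, *Psmb9* and *Ctss* lie farthest to the right. *Cd207* is the only point whose interval lies below 1, and open points had to lie on the side of the library that reached 1.

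The inducible proteasome subunits were higher in CvP and their constitutive counterparts were not. *Psmb8*, *Psmb9* and *Psmb10* replace *Psmb5*, *Psmb6* and *Psmb7* in the immunoproteasome, which favours peptides that fit class I grooves. *Psmb8* had 3.43 RPKM in CvP and 1.18 in Epi, a ratio of 2.91 (2.03 to 4.30). *Psmb9* had 2.98 and 0.53, a ratio of 5.62 (2.99 to 11.3). *Psmb10* had 5.52 and 2.40, a ratio of 2.30 (1.78 to 3.005). The constitutive *Psmb5*, *Psmb6* and *Psmb7* lay between 54.0 and 64.4 RPKM in CvP and between 61.3 and 72.7 in Epi, with ratios of 0.821, 0.928 and 0.886. Within a library, *Psmb8* was at 6.35% of *Psmb5* in CvP and at 1.79% in Epi. *Psmb9* was at 5.24% of *Psmb6* in CvP and at 0.865% in Epi, and *Psmb10* at 8.57% and 3.30% of *Psmb7*. These quotients do not depend on how the libraries are scaled, and the constitutive subunits were by far the more abundant in both. Restated per transcript length, the 3 quotients in CvP would be 4.77%, 1.38% and 1.69%, and those in Epi 1.35%, 0.227% and 0.650%.

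**Figure D3:**
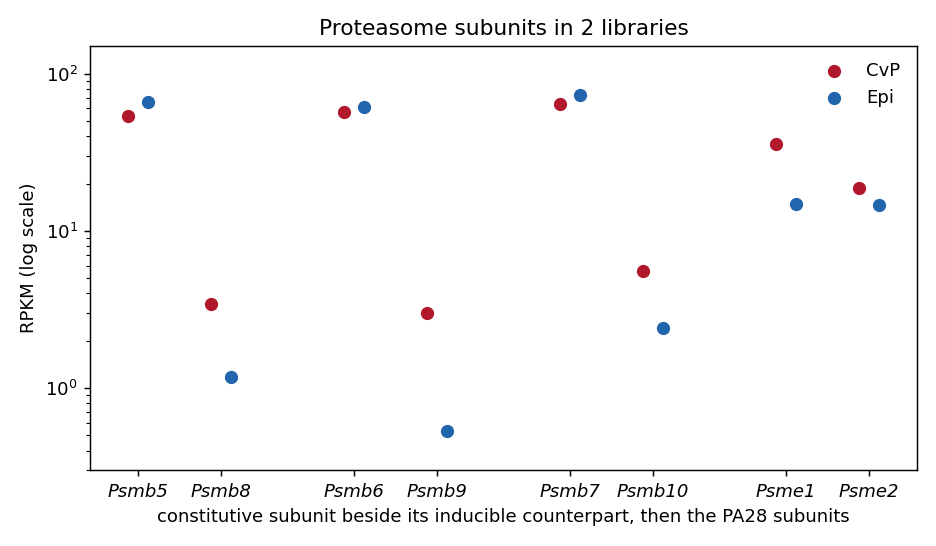
RPKM (log scale) of the constitutive catalytic subunits, each beside its inducible counterpart, and of the PA28 subunits, with red points for the CvP library and blue points for the Epi library. The inducible subunits *Psmb8*, *Psmb9* and *Psmb10* are higher in CvP and the constitutive ones slightly higher in Epi.

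The PA28 activator, a ring that opens the proteasome, is built of the products of *Psme1* and *Psme2*, and these parted. *Psme1* had 35.8 RPKM in CvP and 14.8 in Epi, a ratio of 2.43 (2.16 to 2.73), and *Psme2* had 18.6 and 14.7, a ratio of 1.27 (1.11 to 1.45), which falls below 1 once divided by the median ratio. The quotient of *Psme1* to *Psme2* was 1.93 (1.73 to 2.14) in CvP and 1.01 (0.875 to 1.16) in Epi. *Psme2* is listed at 2.595 kb beside a transcript of 0.962 kb, and per transcript length the quotient would be 0.627 and 0.327, still higher in CvP but below 1 in both.

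All 5 genes of peptide transport, loading and trimming were higher in CvP, each with its interval above the median ratio. *Tap2* had 8.50 and 2.75 RPKM, a ratio of 3.09 (2.63 to 3.66), and its partner *Tap1* had 9.89 and 4.95, a ratio of 1.998 (1.77 to 2.25). By RPKM *Tap1* was 1.16 times *Tap2* in CvP and 1.80 times in Epi, and 1.61 and 2.49 times per transcript length. Antisense annotations overlap 533 and 165 exon bases of *Tap2*. In the GENCODE annotation *Tap1* shares 212 exon bases with *Psmb9* on the other strand, while the deposited spans of *Tap1* and *Psmb9* do not overlap. *Tapbp*, which encodes tapasin, had 48.0 and 27.3, a ratio of 1.76 (1.67 to 1.85), and *Tapbpl*, its relative TAPBPR, 5.02 and 2.87. *Erap1*, the aminopeptidase that trims peptides in the endoplasmic reticulum, had 13.0 and 6.47, a ratio of 2.01 (1.84 to 2.20). *Erap1* and *Tap1* sit on either side of the 2-fold line, and neither interval separates them from it.

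*Tap1* and *Psmb9* are read away from each other from starts 226 bases apart, so the window before *Tap1*, chr17:34187306-34187555 on the plus strand of GRCm38.p6 (RefSeq), shares 225 bases with that of *Psmb9* and is shown for both. Capitals mark its Y box, at 222 to 215 bases before the *Tap1* start.
Tap1: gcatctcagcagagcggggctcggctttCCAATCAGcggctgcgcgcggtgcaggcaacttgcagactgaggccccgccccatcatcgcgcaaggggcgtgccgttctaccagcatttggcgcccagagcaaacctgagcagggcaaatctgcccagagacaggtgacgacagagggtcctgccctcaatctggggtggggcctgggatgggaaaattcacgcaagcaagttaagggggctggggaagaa
A Y box was found in 3.83% of all windows, counted per start, and in 12 of the 36 members, counted per gene. *Psmb9* and *Tap1* count there as 2 members, although the match in their windows is in shared sequence.

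The class II chains were higher in CvP together. *H2-Aa* had 30.4 RPKM in CvP and 10.8 in Epi, a ratio of 2.81 (2.47 to 3.20), and *H2-Ab1* had 30.5 and 13.6, a ratio of 2.24 (2.004 to 2.50). These encode the α and β chains of I-A. *H2-Eb1*, the I-E β chain, had 16.6 and 6.14, a ratio of 2.70 (2.29 to 3.18). C57BL/6 mice carry a deletion in the I-E α gene and show no I-E on the cell surface, so this value is of a transcript alone. *H2-Eb2* had 0.05 and 0.01. The quotient of the α to the β chain of I-A by RPKM was 0.996 (0.912 to 1.09) in CvP and 0.793 (0.688 to 0.914) in Epi. *H2-Ab1* is listed at 2.457 kb beside a transcript of 1.211 kb, and per transcript length the quotient would be 0.464 and 0.369. No exon window of these chains recurs in the MHC region.

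The windows before the starts of *H2-Aa*, chr17:34287824-34288073 on the minus strand, and *H2-Eb1*, chr17:34305617-34305866 on the plus strand (RefSeq, GRCm38.p6), are shown because class II promoters hold a Y box close to the start. Capitals mark it, at 51 to 44 bases before the *H2-Aa* start and 62 to 55 before that of *H2-Eb1*.
H2-Aa: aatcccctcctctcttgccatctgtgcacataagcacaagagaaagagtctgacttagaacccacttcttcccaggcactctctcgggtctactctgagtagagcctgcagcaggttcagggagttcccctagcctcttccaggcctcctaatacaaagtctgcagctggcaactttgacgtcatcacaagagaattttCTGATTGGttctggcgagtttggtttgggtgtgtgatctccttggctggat
H2-Eb1: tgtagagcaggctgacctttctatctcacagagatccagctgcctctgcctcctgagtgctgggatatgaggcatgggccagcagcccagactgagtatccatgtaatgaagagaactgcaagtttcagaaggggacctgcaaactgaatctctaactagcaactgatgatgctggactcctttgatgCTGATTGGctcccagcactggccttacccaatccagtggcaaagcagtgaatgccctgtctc
Neither window held the κB or interferon letters, which says only that these letters are not in these windows.

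*Cd74*, the invariant chain that occupies the class II groove until peptide is loaded, was the most abundant class II gene, with 60.6 RPKM in CvP and 19.9 in Epi and a ratio of 3.04 (2.81 to 3.30). It kept nearly the same proportion to *H2-Aa* in both libraries, at 1.99 (1.85 to 2.15) and 1.84 (1.62 to 2.09), intervals that overlap. *Ctss*, cathepsin S, which cuts the invariant chain, had 8.16 and 1.51, a ratio of 5.40 (4.08 to 7.32), and stood at 13.5% of *Cd74* in CvP and 7.59% in Epi. The DM molecule, which exchanges the last invariant chain fragment for peptide, was scarce. *H2-DMa* had 2.62 and 1.52, a ratio of 1.72 (1.27 to 2.38), and *H2-DMb1* had 2.49 and 0.89, a ratio of 2.80 (1.85 to 4.33). *H2-DMb1* and *H2-DMb2* are near copies, with 48.2% and 51.9% of windows recurring, so their split is uncertain; *H2-DMb2* had 0.58 and 0.23. The DO genes *H2-Oa* and *H2-Ob*, which restrain DM mainly in B cells, had 0.20 and 0.17 RPKM in CvP and 0.14 and 0.06 in Epi.

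Of the transactivators, *Ciita*, the master regulator of class II transcription, had 0.40 RPKM in CvP and 0.39 in Epi, with 58 and 56 estimated reads and a ratio of 1.03 (0.693 to 1.498), so its interval holds the median ratio of all rows but not the ratio of 2.81 of *H2-Aa*. *Nlrc5*, its class I counterpart, had 1.07 and 0.49, a ratio of 2.18 (1.71 to 2.81). Of 7 factors that bind class II promoters, 2 were at least 2-fold higher, near the 28.3% of all rows, *Rfx5* with 5.37 and 2.66 RPKM and *Nfyb* with 6.36 and 2.90.

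*Cd207*, the langerin of Langerhans cells, was the only member whose interval lay wholly below 1. Because it reached 1 RPKM in Epi only, the filter set its direction among the 35 members. It had 0.85 RPKM in CvP and 1.33 in Epi, with 37 and 57 estimated reads and a ratio of 0.639 (0.410 to 0.983). Relative to *H2-Aa* it was at 2.80% in CvP and 12.3% in Epi. The other 6 members with the higher value in Epi were *H2-T22* and *H2-T9*, already described, and 4 with an RPKM of at most 0.51, whose intervals include 1.

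*H2-Ke2* and *H2-Ke6* carry the prefix because they lie in the K region, but encode no MHC chain. *H2-Ke2*, a prefoldin subunit, had 19.2 and 16.7 RPKM, a ratio of 1.15, which falls below 1 once divided by the median ratio, and *H2-Ke6*, a hydroxysteroid dehydrogenase, had 16.2 and 8.59, a ratio of 1.88.

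By position, 39 of the 52 members lie on chromosome 17, within chr17:34056423-37620474 of NCBI37. That stretch holds 162 rows. Among its other 71 rows with an RPKM of at least 1 in both libraries, 11 (15.5%) were at least 2-fold higher in CvP and 1 lower, and their median ratio was 1.34. The 17 members there at 1 or more in both had a median of 1.88, with 7 at least 2-fold higher. The 9 such members on other chromosomes had a median of 2.30, with 6 at least 2-fold higher. Over all 10363 rows at 1 or more in both libraries the median ratio was 1.31, with 17.3% at least 2-fold higher and 3% at least 2-fold lower.

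**Figure D4:**
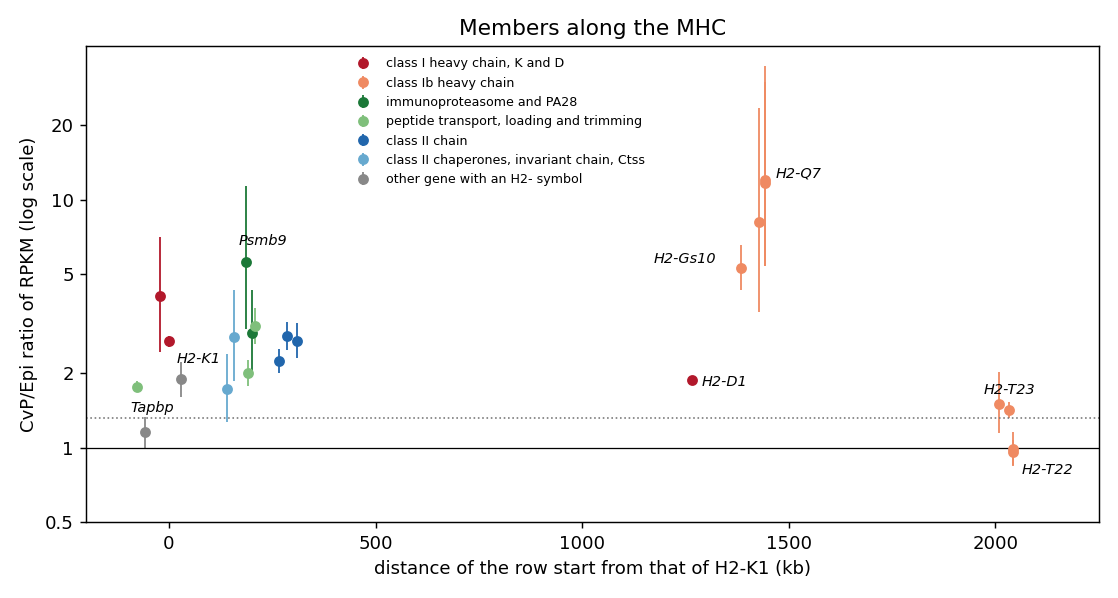
CvP/Epi ratio of RPKM (log scale, 95% counting intervals) against the distance in kb of each member's row from *H2-K1*, for members of the MHC region that reached 1 RPKM in either library. *H2-Q6*, *H2-Q7* and *H2-Q9* stand highest, followed by *Psmb9* and *H2-Gs10*, the class II chains lie between ratios of 2 and 3, and *H2-T22* at the far end sits on the line of ratio 1. Of these, *H2-Q6*, *H2-Q7*, *H2-Q9* and *Psmb9* reached 1 RPKM in CvP only and so had to be higher there, and *H2-Q7* and *H2-Q9* share a place.

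Of the wider pathway, other genes of the endoplasmic reticulum that load class I molecules were all 10 higher in CvP by value, beside 78.1% of all rows. Of these, 2 were at least 2-fold higher, beside 28.3%: *Hsp90b1* at 191 and 87.5 RPKM and *Sec61a1* at 84.3 and 39.2. The median log2 ratio of the 10, with a pseudocount of 0.1, was 0.59, beside 0.50 over all 12549 rows and 1.17 over the 35 members. Of 10 genes of peptide trimming and cross-presentation, 6 were lower in CvP by value, 2 at least 2-fold, and 2 were at least 2-fold higher. Over all rows, 3.76% were at least 2-fold lower and 28.3% at least 2-fold higher. *Thop1*, thimet oligopeptidase, which destroys peptides in the cytosol, had 50.6 and 142 RPKM, a ratio of 0.355, and *Blmh*, bleomycin hydrolase, had 170 and 356, a ratio of 0.479. *Lap3*, leucine aminopeptidase, had 45.7 and 16.3, and *Cybb*, a subunit of the phagocyte NADPH oxidase, had 1.20 and 0.11, a ratio of 10.9 (6.25 to 19.4). Of the endosomal genes, *Ctsl* had 187 and 58.7, *Ctsz* 12.9 and 3.73, and *Cst3*, an inhibitor of cathepsins, 116 and 262. The other 29 genes that carry the antigen-processing term in the annotation column of the table gave 24 rows at 1 or more. Of these, 5 were at least 2-fold higher, beside 28.3% of all rows, and their median log2 ratio was 0.33, below the 0.50 of all rows.

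Genes of interferon signalling were higher in CvP. Of 9 genes of the interferon γ pathway that reached 1 RPKM, 6 were at least 2-fold higher and 0 lower, beside 28.3% and 3.76% of all rows, with a median log2 ratio of 1.16. Of the 6 at 1 or more in both libraries, 3 were at least 2-fold higher, beside 17.3%. *Irf1*, a transcription factor that binds class I promoters, had 5.91 and 0.85 RPKM, a ratio of 6.95 (5.14 to 9.45). *Ifng* itself was at 0.06 and 0 RPKM, with 2 reads and 0. Of 24 interferon-response genes, 19 were at least 2-fold higher, again beside 28.3%, and 0 lower, among them *Oasl2* at 13.8 and 2.88 RPKM. Of the 16 at 1 or more in both libraries, 11 were at least 2-fold higher, beside 17.3%. *Isg15* was near parity, with 11.8 and 11.4.

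Markers of macrophages and leukocytes were higher in CvP, as most members were, and their part in the results was not tested. All 14 macrophage markers were higher in CvP by value, beside 78.1% of all rows that reached 1 RPKM in either library. They had a sum of 67.3 RPKM against 10.2, with *Fcgr1* at 0 in Epi, and only 1 of them, *Cd68*, reached 1 RPKM in both libraries. *Cd14* contributed 20.4 of the CvP sum, and *C1qa* had 5.79 and 0.43. All 5 leukocyte markers were higher, beside the same 78.1%, with a sum of 16.5 against 4.02, and 2 of them reached 1 RPKM in both libraries. Of 12 markers of dendritic and Langerhans cells, 9 were higher in CvP, beside the same 78.1%, with sums of 496 and 340 RPKM. *Epcam*, at 146 and 13.4, and *Cd24a*, which was higher in Epi at 287 and 316, largely set these sums. Epithelial cells also express both genes. *Mfge8* had 47.3 and 9.61, and *Ltc4s* had 12.7 and 0.06, with 1 read in Epi. *Itgax* had 1.70 and 0.44. *Batf3* and *Clec9a* were at 0 in Epi, with 4 and 5 reads in CvP, and *Xcr1* and *Zbtb46* were higher in Epi, with 9 reads each against 5. None of the 5 listed B cell rows and none of the 12 T and natural killer cell markers reached 1 RPKM in either library. The B cell markers summed to 1.00 and 0.19, with *Cd79a*, *Cd79b* and *Cr2* at 0 in Epi, and the T and natural killer cell markers to 1.30 and 0.52, with *Klrb1c* at 0 in both. The 6 fibroblast markers summed to 27.5 RPKM in CvP and 128 in Epi, nearly all of it *Dcn*, with *Lum* at 0 in CvP. By value 5 of them were higher in Epi, where 78.1% of all rows were higher in CvP. *Pdgfra* ran the other way, with 1.30 RPKM in CvP and 0.07 in Epi. Of 4 endothelium rows, 3 were higher in CvP, beside 78.1% of all rows, and only *Tek* reached 1 RPKM, with 2.49 and 0.07. Of the 8 keratinocyte markers 5 were higher in Epi and 3 in CvP, beside the 78.1%, with sums of 32691 RPKM in CvP and 82782 in Epi. The part of these lists in the results was not tested either. The ratio of the summed macrophage markers was 6.60 and that of the leukocyte markers 4.11, while the class II chains together had 2.53 and *B2m* 3.75.

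**Figure D5:**
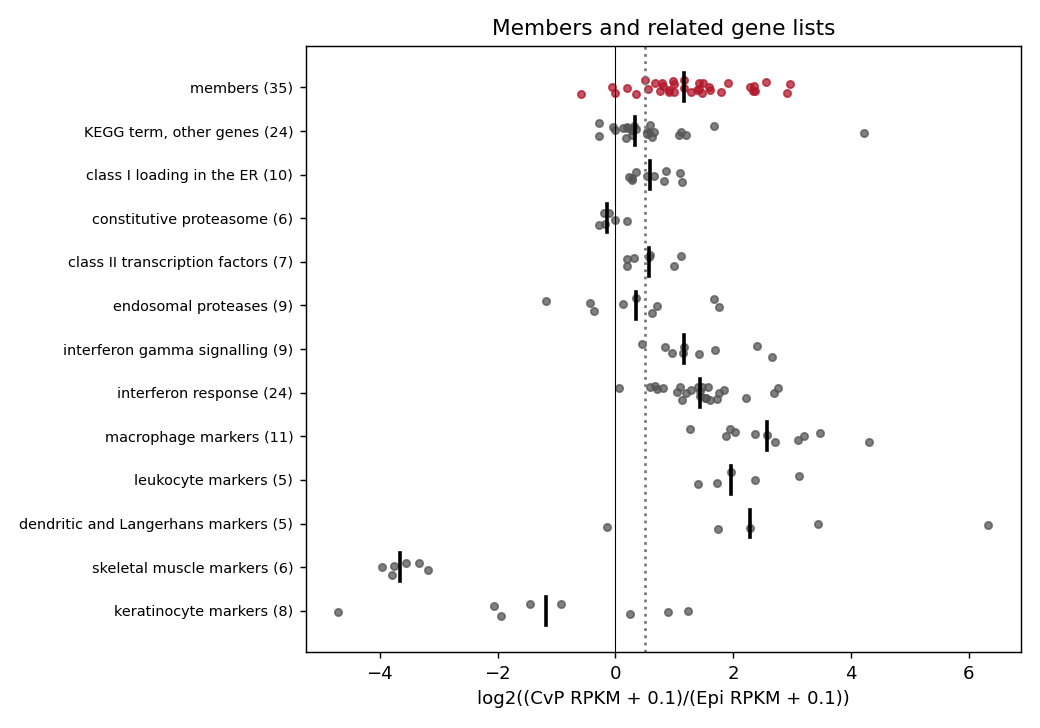
Log2 of the CvP/Epi ratio (pseudocount of 0.1) for the members and for related gene lists, 1 point per gene that reached 1 RPKM in either library, counts in brackets, black bars for medians and a dotted line for the median of all rows (0.50). The members (median 1.17) lie near the interferon lists, below the macrophage and leukocyte markers and above the constitutive proteasome. Points that reached 1 RPKM through CvP alone had to lie above 0, so this order is partly set by the filter. In both libraries it was reached by 1 of 11 macrophage and 2 of 5 leukocyte points, with medians of 1.26 and 1.89, and the median of members was then 0.99.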

How the data were processed

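Poly(A)+ RNA of CvP and Epi, pooled from at least 20 mice each, was sequenced once per tissue. The authors mapped reads to NCBI37/mm9 with Bowtie 0.12.7 and computed RPKM per exon model with ERANGE, and these deposited RPKM values were used. The settings of ERANGE, and how it assigned multiply matching reads, are not given in the sources used here. A deposited ratio column was not used.

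Depth came from the RPKM step of 1 read in 163 rows of 0.1 kb (0.352 in CvP and 0.358 in Epi), where 96.4% and 97.4% of values were whole reads within 0.1. Reads per gene used the listed length or that of the longest GENCODE M1 coding transcript, whichever was less. Quotients restated per transcript length were added after seeing the data, and the length behind each RPKM is taken to be the listed one. Ratios have 95% Clopper-Pearson intervals, quotients within a library a normal approximation, and a count of 0 a floor of 3 reads. A row was counted at a ratio of at least 2 or at most 0.5 with an RPKM of at least 1. Promoter windows (250 bases) were matched by gene ID for 36 members. *March1* and *March8* stand as dates in the table and were matched by gene ID.

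Any member with an RPKM of at least 1 could be named, and others by group. From the other lists, genes past 2-fold or among the 3 highest in CvP could be named. *Psmb5*, *Ifng*, *Batf3*, *Clec9a*, *Isg15*, other list genes outside this rule and members below 1 RPKM were named after their values were seen. The members and lists were chosen with earlier results of these data known. With 1 library per tissue no test was made. Python 3.11.15, pandas 2.3.3 and scipy 1.17.1 were used, and the interval script was tested on simulated data.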

Additional observations from a re-analysis of the deposited data

How the results depend on the processing

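No paired analysis was possible because there was 1 library a tissue, and no replicate could be left out. The count of members at least 2-fold higher in CvP (21 of 35) became 32 of 52 with no filter. It was 12 of 23 at an RPKM of at least 5 and 11 of 35 at a fold of 3. It was 33 after both libraries were rescaled to the same RPKM sum. With an RPKM of at least 1 in both libraries, chosen after the data were seen, it was 13 of 26, beside 17.3% of all such rows. It was 16 once ratios were divided by the median ratio, where 18.9% of all rows were higher and 6.94% lower. Rescaling also moved rows past the RPKM cut, and the 33 are of 43 members, beside 42.8% of 14310 rows higher and 2.89% lower. The count lower in CvP (0) became 3 with no filter, and 1, *Cd207*, after division by the median ratio or at a fold of 1.5. *Cd207* passed the filter through Epi alone. The median log2 ratio (1.17) became 0.78 after division and 1.55 after rescaling. The study criteria (2 members) gave 0 after division, 6 at a CvP RPKM above 3 and 8 at a ratio above 2. Leaving out the second row of a shared place, also chosen after the data were seen, gave 20 of 33 members higher. A mean RPKM of at least 1 gave 19 of 33. For settings printed without a share over all rows none was computed, so those counts were not compared with all rows. Of the 35 single ratios, division moved 23, rescaling 19 and a pseudocount of 1 moved 11 beyond their counting intervals. The median stayed above 0 in each alternative run on it. Depth limits the members below 1 RPKM, and reads per gene are estimates.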
